A study of Mus musculus with 50 samples.

Results

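Gastrocnemius muscles of 28 months-old and 22 months-old male mice were compared, to ask which genes change late in life when the diet scheme is kept the same. The comparison took every deposited library labelled as gastrocnemius of 28 months (9 mice) or of 22 months (8 mice), which is 17 of the 50 mice of the series. All mice were wild-type C57BL/6JRj males, kept in single cages and carrying no transgene, and each library held poly(A) RNA of 1 gastrocnemius, a fast calf muscle. Both ages received the purified AIN-93M diet from soon after 18 months of age until the muscle was taken, unlike the 8 and 18 months-old mice of the series, which had it only for the last months. The time on the diet was therefore longer at 28 months than at 22 months, and it cannot be told apart from age. Mice with overt illness or tumours had been left out by the study, so the 28 months-old mice are survivors without visible disease.

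Sarcopenia is the loss of muscle mass and function in old age. A muscle fibre is held in its state by its motor nerve, which keeps acetylcholine receptors clustered at the synapse, and by growth signals through insulin, IGF and mTORC1. When nerve contact or growth signalling is lost, Foxo transcription factors raise ubiquitin ligases and autophagy genes that break down fibre proteins. The fibres lie in a collagen matrix made by resident fibroblasts, and their energy comes from glycolysis and from mitochondrial respiration.

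The 17 libraries held 14.8 M to 20.1 M counts (M, mega). The total was 16.0 ± 0.617 M at 28 months (SD, n = 9) and 17.4 ± 1.46 M at 22 months (SD, n = 8), a difference in an exact permutation test (two-sided p = 0.0173). All 15 skeletal muscle markers passed the filter on low counts, with a summed level of 188288 to 264655 counts per M of library counts (CPM) at 22 months and 147233 to 293358 CPM at 28 months. The 10 most abundant genes took 16.9% of the counts in 28m replicate 2 and 22.2 to 29.3% in the other 16 mice. No pair of libraries of the same age agreed within counting noise, the smallest variance of a pair being 12.03 times the counting variance. Mice are named by age and replicate number, which the labels tie to no culture, litter or day.

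Between 22 and 28 months 1859 of 12064 tested genes (15.4%) passed a false discovery rate (FDR) of 0.01 in edgeR's quasi-likelihood test. Of these, 1130 (9.37% of tested genes) were higher and 729 (6.04%) were lower at 28 months. Most steps were small, as 86.4% of the genes that passed stayed under a 2-fold change, with a median size of 0.56 log2 units. At least a 2-fold change was reached by 176 of the genes that rose and by 77 of those that fell. In 175 genes (1.45% of tested genes) the values of the 2 ages did not overlap, and 171 of these were among the genes that passed. With upper-quartile in place of TMM scaling the total was 1864, of which 853 were higher and 1011 lower. The number rested on which mice were used: it was 843 to 1206 without any one of 22m replicates 3, 4, 5, 6, 7 and 8 or 28m replicates 1, 5 and 8, and it was 3042 without 28m replicate 3.

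The 28 months-old mice were not alike. Over the genes that rose, 28m replicates 3, 4 and 6 lay at -0.18, 0.00 and -0.03 on a log2 scale centred on the mean of all 17 mice, against 0.32 to 0.76 in the other 6 mice of 28 months and -0.49 to -0.11 in the mice of 22 months. These genes were chosen on the same contrast, so the values are a description of the mice. Each mouse's distance from the mean of the other mice of its age, as the root mean square of log2 CPM differences over genes, was 0.279 to 0.641 at 28 months and 0.254 to 0.313 at 22 months. The mean distance was 0.385 ± 0.115 at 28 months (SD, n = 9) and 0.285 ± 0.0244 at 22 months (SD, n = 8), an exact permutation p of 0.00831 (two-sided). The highest value belonged to 28m replicate 2, and without that mouse the exact permutation p was 0.0146. Across genes, the SD over mice was larger at 28 months for 73.0% of genes, with a median SD of 0.270 log2 CPM against 0.190.

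Direction also followed transcript length. Among the 96.1% of tested genes with a known transcript length, the median log2 fold change went from -0.19 in the shortest decile (up to 1339 bases) to 0.28 in the longest decile (from 6776 bases). Of 168 genes of the shortest decile that passed, 150 were lower, and of 331 genes of the longest decile that passed, 316 were higher. In each mouse, the longest decile minus the shortest decile was -0.64 to 0.18 log2 units at 22 months and -0.11 to 0.53 at 28 months, so that the ages overlapped and differed in the mean by 0.46 (exact permutation p = 0.0028, two-sided). Between 24 and 26 months the same medians went from -0.05 to 0.03. With an offset for length in each mouse 1422 genes passed, 1140 of them among the 1859. That fit was added after the data had been seen. The cause of the length trend was not tested.

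**Figure D1:**
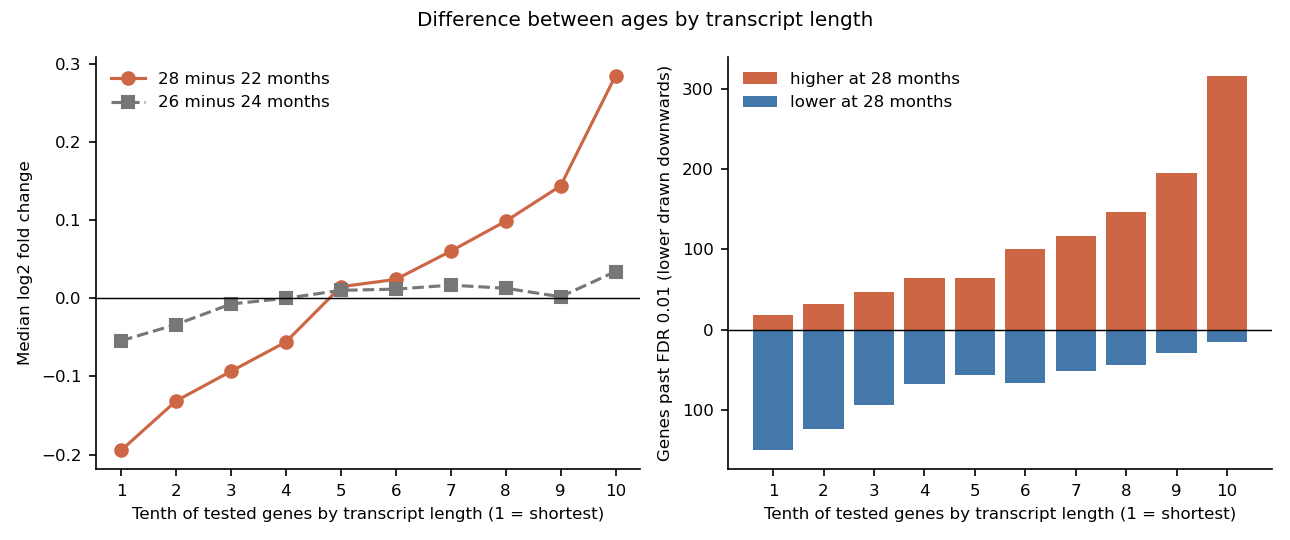
Left, median log2 fold change of 28 minus 22 months (circles) and 26 minus 24 months (squares) in each decile of tested genes ordered by transcript length. Right, the number of genes past FDR 0.01 that were higher (upwards) or lower (downwards) at 28 months. The median at 28 against 22 months runs from -0.19 in the shortest decile to 0.28 in the longest.

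The largest increase belonged to Cxcl13, which codes for a chemokine that attracts B lymphocytes and lies on chromosome 5 (GRCm38, 95956951 to 95961068). Its level was 0.947 to 4.01 CPM at 22 months (median 1.29) and 1.16 to 150 CPM at 28 months (median 19.3). Of the 9 mice of 28 months 7 lay above every mouse of 22 months, and 28m replicates 3 and 4 lay within the younger range. The log2 fold change was 4.41 ± 0.80 (SE, FDR 0.00193), and it was 3.64 to 4.74 when any 1 mouse was left out, the lowest without 28m replicate 2. In bulk muscle, a change in the number of cells of a type and a change in the RNA of each cell cannot be told apart.

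Other large increases followed. Sesn1, coding for the leucine-sensing mTORC1 inhibitor sestrin 1, was at 19.2 to 37.9 CPM at 22 months (median 28.7) and at 26.3 to 519 CPM at 28 months (median 175). Here too 7 of 9 mice lay above the whole younger group, with 28m replicates 3 and 4 inside its range, and the log2 fold change was 2.76 ± 0.49 (FDR 0.00182). Arhgap26 went from a median of 6.81 CPM (4.29 to 17.6) to 39.7 CPM (9.89 to 391), a log2 fold change of 3.53 ± 0.63 (FDR 0.00184) that was 2.78 without 28m replicate 1, the mouse with 391 CPM. Arrdc3, an arrestin-domain gene that acts on receptor trafficking, went from a median of 58.8 CPM (27.0 to 106) to 303 CPM (58.5 to 1102), a log2 fold change of 2.79 ± 0.52 (FDR 0.00202). In both genes 7 of 9 old mice exceeded every younger one.

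Ddit4, coding for the mTORC1 inhibitor REDD1, rose by 2.64 ± 0.64 log2 units (FDR 0.00586), and its values were 6.65 to 86.1 CPM at 22 months and 19.7 to 631 CPM at 28 months. The salt-inducible kinase gene Sik1 rose by 2.37 ± 0.53 (FDR 0.00377) and the orphan nuclear receptor gene Nr4a3 by 2.43 ± 0.60 (FDR 0.00637), and without 28m replicate 1 these changes were 1.69 and 1.76. Serpina3n, a secreted protease inhibitor gene, was at 4.58 to 11.6 CPM at 22 months and at 6.80 to 271 CPM at 28 months, with a median of 13.4 CPM. Its log2 fold change of 2.74 ± 0.68 (FDR 0.00652) fell to 1.45 without 28m replicate 2, the mouse with 271 CPM. The gene 8430408G22Rik rose by 2.94 ± 0.65 (FDR 0.00388), with 6 of 9 old mice above the younger range. Among these genes, Serpina3n did not pass without any one of 22m replicates 2 to 8 or 28m replicate 1, Ddit4 without 22m replicates 3, 5, 6 or 7 or 28m replicates 1, 5 or 8, and Nr4a3 without 22m replicates 2, 3, 4, 6, 7 or 8 or 28m replicates 1, 5 or 8.

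Among the 12 largest decreases were genes of the matrix, of secreted signals and of muscle kinases. Map3k7cl, a kinase-related gene on chromosome 16, was at 14.7 to 20.1 CPM at 22 months (median 16.6) and at 1.23 to 9.46 CPM at 28 months (median 5.03). The ages did not overlap, and the log2 fold change was -1.69 ± 0.26 (FDR 0.00114). Nrep, which codes for a small protein named for nerve regeneration, was at 41.3 to 81.4 CPM (median 54.1) and at 3.39 to 36.6 CPM (median 11.5), again without overlap (log2 fold change -1.77 ± 0.39, FDR 0.00357). The kinase gene Sbk2 (-1.66 ± 0.27, FDR 0.00174) and the uncharacterised 1700001O22Rik (-1.97 ± 0.28, FDR 0.000891) also showed no overlap. Gdf11, coding for the TGF-beta family ligand closest to myostatin, was at 16.1 to 40.9 CPM (median 33.2) and at 3.96 to 17.3 CPM (median 7.12), with 8 of 9 old mice below every younger one (-1.71 ± 0.29, FDR 0.00174). Dkk3, a secreted Wnt modulator gene, fell by 1.73 log2 units (SE 0.27, FDR 0.00121) with the same 8 of 9. The MAP kinase phosphatase gene Dusp10 (-1.60 ± 0.31), the mitochondrial fission gene Gdap1 (-1.57 ± 0.31) and the potassium channel gene Kcng4 (-1.56 ± 0.41) completed the set together with 2 collagen genes and Amd1, described below. Kcng4 passed in only 4 of the 17 fits that each left out 1 mouse, those without 22m replicate 1 or 28m replicates 3, 4 or 6.

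**Figure D2:**
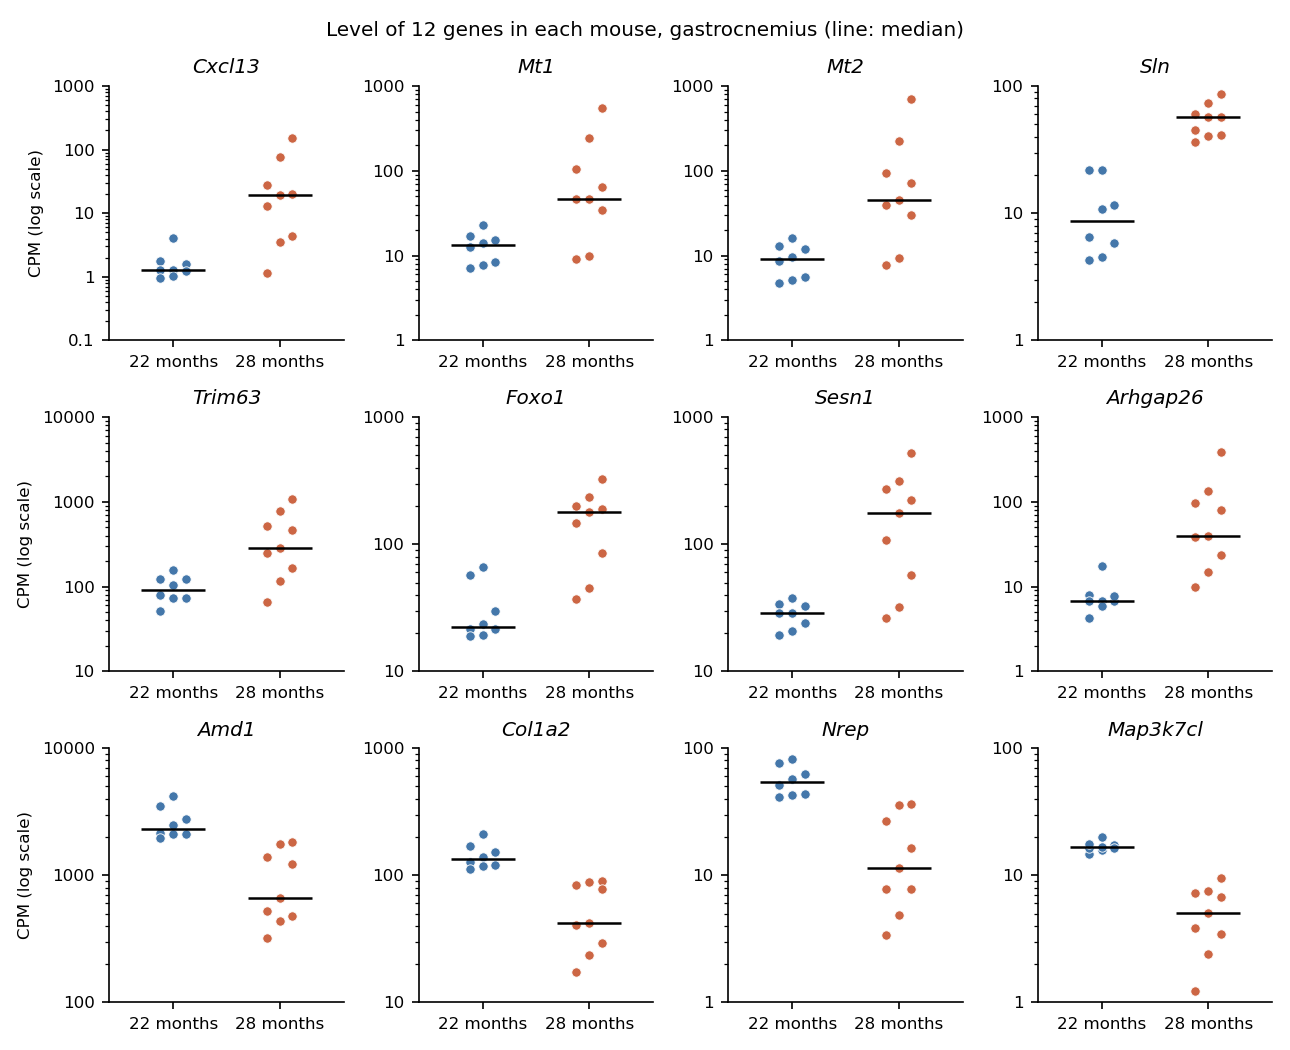
CPM on a log axis for 12 genes in each of 8 mice of 22 months (blue) and 9 mice of 28 months (orange), with a line at the median. The ages do not overlap for Sln, Amd1, Col1a2, Nrep and Map3k7cl, whereas 28m replicates 3 and 4 keep Cxcl13, Mt1, Mt2, Sesn1 and Arhgap26 within the younger range in 2 of 9 old mice.

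Metallothioneins are small cysteine-rich proteins that bind zinc and copper, and their genes respond to metal through the factor MTF-1 and to glucocorticoids. Both metallothionein genes that passed the filter rose, beside 9.37% of all tested genes. Mt2 was at 4.71 to 16.3 CPM at 22 months (median 9.17) and at 7.84 to 700 CPM at 28 months (median 45.6). Mt1 was at 7.11 to 23.1 CPM (median 13.2) and at 9.19 to 546 CPM (median 46.8). For each gene 7 of 9 old mice lay above all younger mice, 28m replicates 3 and 4 lay within the younger range, and 28m replicate 2 was the highest. The log2 fold changes were 3.86 ± 0.78 for Mt2 (FDR 0.0026) and 3.22 ± 0.69 for Mt1 (FDR 0.00335), and without 28m replicate 2 they were 2.80 and 2.40.

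The bases upstream of both genes are shown because they hold the short letters of the metal response element, written in capitals, to which MTF-1 binds. The sequences are from RefSeq on GRCm38.p6, in the gene's direction, 250 bases ending just before the annotated start, for Mt1 at chr8:94178839-94179088 (+) and for Mt2 at chr8:94172368-94172617 (+).
Mt1: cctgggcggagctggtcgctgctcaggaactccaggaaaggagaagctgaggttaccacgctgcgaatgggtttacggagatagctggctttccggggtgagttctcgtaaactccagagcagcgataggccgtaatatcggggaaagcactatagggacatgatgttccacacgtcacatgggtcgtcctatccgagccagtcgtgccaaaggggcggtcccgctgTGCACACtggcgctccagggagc
Mt2: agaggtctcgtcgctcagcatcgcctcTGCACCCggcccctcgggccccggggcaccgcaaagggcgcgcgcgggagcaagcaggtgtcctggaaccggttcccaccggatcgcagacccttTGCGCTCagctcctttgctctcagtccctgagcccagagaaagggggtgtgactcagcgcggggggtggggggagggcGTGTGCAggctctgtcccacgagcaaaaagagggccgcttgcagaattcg

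The letters searched were TGCGCNC or TGCACNC on both strands. The window printed held 1 match for Mt1 and 3 for Mt2, and the window of 300 bases that runs on 50 bases past the start held 3 and 4. Of all 27025 genes with a promoter in the table, 28.2% held a match in 300 bases, so these letters are common.

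Genes of the neuromuscular synapse and of denervated fibres rose in part. Of 4 tested acetylcholine receptor subunit genes 2 rose and none fell, a share of 50% beside 15.4% of all tested genes. Chrna1, the alpha subunit gene, was at 21.6 to 30.5 CPM at 22 months (median 23.7) and at 28.5 to 58.4 CPM at 28 months (median 41.7), a log2 fold change of 0.76 ± 0.13 (FDR 0.00182). Chrnb1, the beta subunit gene, was at 29.7 to 48.4 CPM (median 40.9) and at 48.4 to 84.8 CPM (median 62.9), a change of 0.68 ± 0.11 (FDR 0.00174). All but 2 old mice for Chrna1 and all but 1 for Chrnb1 lay above the younger range. The delta subunit gene Chrnd (0.40 ± 0.18, FDR 0.0847) and the adult epsilon subunit gene Chrne (-0.17 ± 0.18, FDR 0.456) did not pass, and the fetal gamma subunit gene Chrng was below the filter.

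The start of Chrna1 is shown because subunit genes respond to myogenic factors, which bind E-boxes. The capitals mark CAGCTG, the same letters on both strands, in the 250 bases before the RefSeq start at chr2:73580339-73580588 (-) of GRCm38.p6, written in the gene's direction.
Chrna1: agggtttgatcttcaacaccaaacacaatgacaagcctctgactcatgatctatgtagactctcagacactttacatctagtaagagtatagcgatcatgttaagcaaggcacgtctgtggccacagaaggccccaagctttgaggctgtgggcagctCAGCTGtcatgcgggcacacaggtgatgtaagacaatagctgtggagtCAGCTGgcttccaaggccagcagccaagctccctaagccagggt

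The Chrna1 window held 2 matches. Of the 3 subunit genes with a promoter in the table, Chrna1 and Chrne held the letters within 300 bases, against 18.3% of all genes, so a gene that rose and a gene that did not pass both had them, while Chrnb1, which rose, did not.

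The wider list of genes known to respond to denervation had 9 of 19 tested members higher and none lower (47.4%, beside 15.4% of all tested genes). Their median log2 fold change was 0.77 against 0.00 over all tested genes. Mt2, Cdkn1a, Gadd45a, Chrna1, Musk and Sln, which rose, are also members of other lists here. The counts of these lists are therefore not independent of each other. Sln, coding for sarcolipin, an inhibitor of the sarcoplasmic calcium pump, was at 4.28 to 22.0 CPM at 22 months (median 8.66) and at 36.3 to 86.0 CPM at 28 months (median 56.8). Every old mouse lay above every younger one, and the log2 fold change was 2.34 ± 0.32 (FDR 0.000867). Runx1, a transcription factor gene induced in denervated muscle, went from a median of 4.99 CPM (3.71 to 7.03) to 12.5 CPM (6.74 to 30.7), a change of 1.64 ± 0.27 (FDR 0.00174).

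Gadd45a, a stress and growth arrest gene, rose by 2.06 ± 0.39 (FDR 0.00216), with 8 of 9 old mice above the younger range. Ncam1, the neural adhesion molecule gene, rose by 0.51 ± 0.11 (FDR 0.00314), but with the length offset its change was 0.34 (FDR 0.0273). Musk, coding for the receptor kinase that organises the synapse, rose by 1.07 ± 0.26 (FDR 0.00614). It was the only 1 of 12 tested organiser genes of the junction to pass (8.33%, beside 15.4% of all tested genes). Musk lost its place when any one of 22m replicates 2 to 8 or 28m replicate 2 was left out, with an FDR of up to 0.0135. Myog, the myogenic factor gene that rises in denervated muscle, was at 1.995 to 6.50 CPM (median 4.10) and at 3.82 to 35.6 CPM (median 6.17), and its change of 1.19 ± 0.42 did not pass (FDR 0.035). None of the 11 tested myogenic regulators passed, beside 15.4% of all tested genes. Over the fits that each left out 1 mouse, 7 to 9 members of the denervation list rose.

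Few fibre type genes passed. Of 13 tested slow fibre genes Sln alone rose (7.69%, beside 15.4% of all tested genes), although 12 had a positive log2 fold change and the median was 0.57. Between 24 and 26 months only 2 of these 13 were positive, with a median of -0.20. Of 15 tested fast fibre genes Myh1 alone rose (6.67%, beside the same 15.4%). Myh1, the type IIx myosin heavy chain gene, was at 2059 to 4844 CPM at 22 months (median 3521) and at 2768 to 8119 CPM at 28 months (median 5790), a change of 0.71 ± 0.19 (FDR 0.00863). It did not pass without any one of 22m replicates 2, 3, 4, 6, 7 and 8 or 28m replicates 1, 2, 5, 6, 8 and 9, with an FDR of up to 0.0202, and its change with the length offset was 0.57 (FDR 0.0249). The type IIa gene Myh2 (0.41 ± 0.23, FDR 0.16), the type IIb gene Myh4 (0.20 ± 0.18, FDR 0.398) and the slow gene Myh7 (1.06 ± 0.47, FDR 0.0811) did not pass. Myh7 was at 14.0 to 491 CPM at 22 months and at 213 to 1062 CPM at 28 months. The giant sarcomere protein genes Ttn (1.27 ± 0.20, FDR 0.00121) and Neb (1.07 ± 0.21, FDR 0.00238), whose transcripts are among the longest, changed by 0.33 (FDR 0.0159) and 0.58 (FDR 0.00286) with the length offset.

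Some breakdown genes and 2 Foxo genes rose. Of 15 tested atrophy ubiquitin ligase and Foxo genes, 5 rose and 1 fell, a share of 40% beside 15.4% of all tested genes. Foxo1, coding for a transcription factor that drives atrophy genes, was at 18.9 to 66.3 CPM at 22 months (median 22.5) and at 37.4 to 327 CPM at 28 months (median 180), with 7 of 9 old mice above the younger range (2.32 ± 0.41, FDR 0.00182). Its relative Foxo3 rose by 1.26 ± 0.25 (FDR 0.0025). Trim63, coding for the ubiquitin ligase MuRF1, was at 51.6 to 156 CPM (median 91.8) and at 65.6 to 1077 CPM (median 287), a change of 2.08 ± 0.44 (FDR 0.00325). Fbxo32, coding for the ligase atrogin-1, was at 392 to 894 CPM (median 628) and at 393 to 5432 CPM (median 1154), and its change of 1.51 ± 0.41 missed the threshold (FDR 0.0106). The ligase gene Trim32 fell by 0.35 log2 units (SE 0.09, FDR 0.00846) but passed only without 28m replicates 3, 4 or 9. Only 3 members of the list rose without any one of 22m replicates 3 to 8 or of 28m replicates 1, 5, 7 and 9, and 3 rose with the length offset.

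The Trim63 start is shown because Foxo factors are known to act there. The capitals mark GTAAACA, found on the opposite strand, in the 250 bases before the RefSeq start at chr4:134314870-134315119 (+) of GRCm38.p6.
Trim63: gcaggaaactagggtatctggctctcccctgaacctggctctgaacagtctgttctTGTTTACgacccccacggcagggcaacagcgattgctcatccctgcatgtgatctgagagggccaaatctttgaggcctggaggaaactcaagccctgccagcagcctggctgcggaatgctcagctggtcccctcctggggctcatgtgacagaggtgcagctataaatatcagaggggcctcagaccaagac

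GTAAACA was searched on both strands. In 300 bases, 2 of the 13 list members with a promoter in the table held it (Trim63 and Mdm2), against 4.05% of all genes.

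Of 32 listed autophagy genes 31 were found by the symbols searched. Of these 31 tested genes 6 rose and 1 fell, a share of 22.6% beside 15.4% of all tested genes. Lamp2, a lysosomal membrane protein gene, was at 89.5 to 108 CPM at 22 months and at 118 to 231 CPM at 28 months, without overlap (0.70 ± 0.12, FDR 0.00174). The other members were less firm, since 2 or 3 rose without any one of 22m replicates 2 to 8 or of 28m replicates 1, 2, 5, 7 and 8, and 10 or 11 rose without 28m replicates 3, 4 or 6. With the length offset 5 rose and 3 fell. None of the 42 tested proteasome subunit genes passed, beside 15.4% of all tested genes, and 6 rose with the length offset. Of the 42, 31 had a positive log2 fold change, and the median was 0.14. At a looser limit, an unadjusted p under 0.05 in edgeR's quasi-likelihood test, 5795 of all 12064 genes stood.

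Of 24 tested genes linked to p53 and growth arrest, 5 rose and 1 fell, a share of 25% beside 15.4% of all tested genes. Cdkn1a, coding for the cell cycle inhibitor p21, was at 18.0 to 29.8 CPM at 22 months (median 23.6) and at 25.5 to 239 CPM at 28 months (median 60.9), with 7 of 9 old mice above the younger range (1.70 ± 0.37, FDR 0.00351). Trp53inp1, a p53-induced stress gene, rose by 1.96 ± 0.36 (FDR 0.00196). The other 3 were Sesn1, Ddit4 and Gadd45a. Between 4 and 7 members rose when any 1 mouse was left out, and 6 rose with the length offset.

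The IL-6 family and the JAK-STAT pathway carry signals of cytokines such as interleukin 6 and leukaemia inhibitory factor into the fibre. Here 9 of 28 tested members rose and none fell, a share of 32.1% beside 15.4% of all tested genes. A positive log2 fold change was found in 24 of 28. The receptor gene Il6ra was at 7.10 to 18.6 CPM at 22 months (median 9.91) and at 8.93 to 155 CPM at 28 months (median 44.1), a change of 2.17 ± 0.44 (FDR 0.0026). The oncostatin M receptor gene Osmr rose by 0.95 ± 0.18 (FDR 0.0021), and the survival gene Mcl1, a STAT3 target, by 0.55 ± 0.10 (FDR 0.00193). Cebpd, a transcription factor gene downstream of STAT3, rose by 3.13 ± 0.62 (FDR 0.0025) from a low level of 0.0573 to 1.38 CPM to 0.321 to 14.7 CPM. Without 28m replicate 1, 5 members rose. With upper-quartile scaling 9 rose and 2 fell, and with the length offset 7 rose and 1 fell.

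Of 30 tested insulin and mTORC1 signalling genes 14 rose and none fell, a share of 46.7% beside 15.4% of all tested genes. Pik3r1, coding for the regulatory subunit of PI3 kinase, was at 22.7 to 56.8 CPM (median 33.8) and at 49.8 to 307 CPM (median 130), a change of 1.93 ± 0.33 (FDR 0.00174). Eif4ebp1, coding for the translation repressor 4E-BP1, rose by 1.62 ± 0.32 (FDR 0.00253), and the insulin receptor substrate gene Irs2 by 1.87 ± 0.48 (FDR 0.00787), although Irs2 did not pass without any one of 22m replicates 2 to 8 or 28m replicates 1, 2, 5 and 8, its change without 28m replicate 1 being 1.18. The members that rose include both brakes (Sesn1, Ddit4, Tsc1, Tsc2, Deptor, Eif4ebp1) and drivers (Insr, Igf1r, Akt1, Mtor) of the pathway. Between 7 and 9 rose without any one of 22m replicates 2 to 8 or 28m replicates 1, 5 and 8. With the length offset 6 rose, and with upper-quartile scaling 11 rose and 2 fell.

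Of 31 tested genes of myostatin and BMP signalling 2 rose and 3 fell, a share of 16.1% beside 15.4% of all tested genes. Beside the fall of Gdf11, the type I receptor genes Tgfbr1 (0.70 ± 0.14, FDR 0.0025) and Acvr1b (1.03 ± 0.21, FDR 0.00273) rose, the first without overlap between ages. Without 28m replicate 5, 1 member fell.

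Polyamines are small cations made from ornithine and decarboxylated S-adenosylmethionine. Of 12 tested genes of their metabolism 4 fell and none rose, a share of 33.3% beside 15.4% of all tested genes. Amd1, coding for S-adenosylmethionine decarboxylase, which supplies the aminopropyl group, was at 1959 to 4166 CPM at 22 months (median 2329) and at 319 to 1821 CPM at 28 months (median 658). The ages did not overlap, and the change was -1.47 ± 0.32 (FDR 0.00376). Smox, the spermine oxidase gene, was at 299 to 688 CPM (median 401) and at 54.4 to 304 CPM (median 198), a change of -1.26 ± 0.28 (FDR 0.00361). Azin1, coding for the antizyme inhibitor that keeps ornithine decarboxylase active, fell by 0.46 log2 units (SE 0.10, FDR 0.00351), and the spermine synthase gene Sms fell by 0.44 (SE 0.11, FDR 0.0059). The count of members that fell was 3 to 5 when any 1 mouse was left out, and with the length offset 4 fell and 1 rose.

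Respiratory chain genes tended downwards, but few passed and they are short. All 36 tested complex I subunit genes had a negative log2 fold change, with a median of -0.37. Of them 7 fell (19.4%, beside 15.4% of all tested genes past the threshold). Of 42 tested genes of complexes II to V, 41 were negative with a median of -0.30. Cox8b alone fell (-0.58 ± 0.14, FDR 0.00496), a share of 2.38% beside 15.4% of all tested genes. Of 67 tested mitochondrial ribosomal protein genes 8 fell and none rose, a share of 11.9% beside 15.4% of all tested genes. Ndufc1, a complex I subunit gene, was at 99.3 to 144 CPM at 22 months (median 130) and at 65.3 to 113 CPM at 28 months (median 81.3), a change of -0.53 ± 0.12 (FDR 0.00345). With the length offset the medians were -0.17, -0.11 and -0.06, and 1, 1 and 2 genes of the 3 lists fell. The complex I count was 1 or 2 without any one of 22m replicates 3 to 8 or of 28m replicates 1, 5, 8 and 9, 4 without 28m replicates 2 or 7, 12 without 28m replicate 6 and 21 without 28m replicate 3. For complexes II to V it was 0 without 22m replicates 4, 5, 6 or 7 or 28m replicate 5, 3 without 22m replicate 1, 6 without 28m replicate 6 and 14 without 28m replicate 3. For mitochondrial ribosomal proteins it was 3 to 5 without any one of 22m replicates 3 to 8 or of 28m replicates 1, 5, 7, 8 and 9, and 18 without 28m replicate 3.

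Regulators of respiration did not pass. Ppargc1a, coding for the coactivator PGC-1alpha, changed by 1.16 ± 0.35 (FDR 0.0174) and Esrra, coding for its partner estrogen-related receptor alpha, by -0.61 ± 0.20 (FDR 0.0233). Yy1, a further partner, changed by 0.32 ± 0.12 (FDR 0.0456) and the lipid-sensing receptor gene Ppara by 0.77 ± 0.24 (FDR 0.0203). Nmrk2, the muscle nicotinamide riboside kinase gene, was at 27.4 to 180 CPM (median 95.2) and at 2.998 to 103 CPM (median 10.5), and its change of -1.69 ± 0.63 did not pass (FDR 0.0425). The short site of estrogen-related receptors, AAGGTCA on either strand, was in 12.5% of the 64 respiratory genes with a promoter in the table and in 5.38% of all genes, and the longer TCAAGGTCA, which contains it, in 3.12% and 0.466%. Of 24 tested citrate cycle genes none passed, and of 35 glycolysis and glycogen genes 1 rose (2.86%, beside 15.4% of all tested genes). That gene did not pass with the length offset.

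Many RNA processing genes rose. Of 53 tested splicing factor genes 25 rose and none fell, a share of 47.2% beside 15.4% of all tested genes. Their median was 0.38, and 20 rose with the length offset. Sf3b1, coding for the branch point factor, was at 106 to 149 CPM at 22 months (median 122) and at 124 to 285 CPM at 28 months (median 207), a change of 0.71 ± 0.14 (FDR 0.00237). Rbmx, an hnRNP gene, rose by 0.50 ± 0.09 (FDR 0.00202). The count was 9 to 16 without any one of 22m replicates 2, 3, 5, 6, 7 and 8 or of 28m replicates 1, 5 and 9. Of 35 tested ribosome biogenesis genes 13 rose, a share of 37.1% beside 15.4% of all tested genes. Among them was Wdr43 (0.73 ± 0.15, FDR 0.00264), but only 7 rose with the length offset. The count was 2 to 6 without any one of 22m replicates 2 to 8 or of 28m replicates 1, 2, 5, 7, 8 and 9. It was 20 without 28m replicates 3 or 6. Among 77 tested cytosolic ribosomal protein genes Rpl3 alone rose (0.65 ± 0.14, FDR 0.00293), a share of 1.3% beside 15.4% of all tested genes. With the length offset 30 of these short genes rose.

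Collagen genes fell. Of 24 tested collagen genes 8 fell and 1 rose, a share of 37.5% beside 15.4% of all tested genes. Their median log2 fold change was -0.68, and 22 were negative. Col1a2, coding for the alpha 2 chain of type I collagen, was at 112 to 212 CPM at 22 months (median 133) and at 17.2 to 90.6 CPM at 28 months (median 42.1), without overlap (-1.39 ± 0.29, FDR 0.00295). Col6a2, a chain of the microfibrillar type VI collagen, did not overlap either (-1.32 ± 0.24, FDR 0.00193). Col3a1 fell by 1.61 log2 units (SE 0.35, FDR 0.00335), Col1a1 by 1.48 (SE 0.39, FDR 0.00828) and Col5a3 by 1.02 (SE 0.16, FDR 0.00141). Col1a1 did not pass without any one mouse of 22 months or without 28m replicates 1, 5, 7 or 8, with an FDR of up to 0.0189. Col19a1, a low-level collagen gene of muscle fibres, rose by 0.997 ± 0.26 (FDR 0.00771), but it passed in only 5 of the 17 fits, those without 22m replicate 7 or 28m replicates 3, 4, 6 or 9, and it did not pass with the length offset. Between 7 and 10 fell when any 1 mouse was left out, and 9 fell with the length offset.

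Markers of fibroblasts moved with the collagens. Of 16 tested members 8 fell and 1 rose, a share of 56.25% beside 15.4% of all tested genes. Their summed level was 2327 to 3023 CPM at 22 months and 1779 to 2598 CPM at 28 months. Thy1 fell by 1.30 log2 units (SE 0.24, FDR 0.00202). Dpt, coding for the matrix protein dermatopontin, was at 49.6 to 61.5 CPM and at 13.1 to 42.1 CPM, without overlap (-0.96 ± 0.18, FDR 0.00216). Lox, coding for the collagen cross-linking enzyme, rose by 1.35 ± 0.27 (FDR 0.00243), with 7 of 9 old mice above the younger range. Without 28m replicate 5 the number that fell was 5. The part of cell number in the fall of collagens was not tested. Kera, a proteoglycan gene of tendon and cornea, fell by 1.81 log2 units (SE 0.40, FDR 0.00377). Of 13 tested tendon-associated genes 2 fell (15.4%, beside 6.04% of all tested genes), 1 of them also with the length offset. All 13 had a negative log2 fold change, with a median of -0.66, and of -0.49 between 24 and 26 months. When any 1 mouse was left out 1 to 7 of them fell, the most without 28m replicate 6. The amount of tendon taken with the muscle was not tested either.

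Of 18 tested macrophage markers 3 rose (16.7%, beside 9.37% of all tested genes), among them Gpnmb (0.84 ± 0.18, FDR 0.00333) and the scavenger receptor gene Cd163, at 18.5 to 38.5 CPM and at 24.7 to 91.9 CPM (1.08 ± 0.25, FDR 0.00466). The summed level of these markers was 281 to 425 CPM at 22 months and 320 to 813 CPM at 28 months. A positive log2 fold change was found in 13 and a negative one in 5. Their median was 0.28, and 0.19 without 28m replicate 2. 1 marker rose without 22m replicates 3, 6 or 8 or 28m replicate 5, where Cd163 did not pass. Of 18 lymphocyte markers 2 passed the filter, and neither changed past the threshold. Of 19 tested chemokine and cytokine genes Cxcl13 and Ccl8 (1.25 ± 0.25, FDR 0.00253) rose and 1 fell, a share of 15.8% beside 15.4% of all tested genes. Without 28m replicate 3, 4 of them rose, and with the length offset none fell. Of 33 tested interferon-stimulated genes none rose and 1 fell (3.03%, beside 15.4% of all tested genes), while 27 were negative with a median of -0.30. The number that fell was 0 without any one of 22m replicates 4 to 8 or of 28m replicates 1, 5, 7, 8 and 9, 2 without 22m replicate 1 or 28m replicates 2, 4 or 6, and 5 without 28m replicate 3.

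Of 18 tested circadian clock genes 5 rose and 2 fell, a share of 38.9% beside 15.4% of all tested genes. The repressor gene Cry2 (1.49 ± 0.31, FDR 0.00295) and Nfil3 (2.07 ± 0.52, FDR 0.00706) rose, and the repressor gene Bhlhe41 fell (-1.03 ± 0.22, FDR 0.00294). Without any one of 22m replicates 3, 5, 6, 7 and 8 or 28m replicates 1, 5 and 8, 3 clock genes rose, and 4 or 5 fell without 28m replicates 3 or 4. With the length offset 4 rose and 3 fell. The change of Nfil3 was 1.42 without 28m replicate 1. The hour at which each muscle was taken is not given in the sources used here. Among 35 tested antioxidant genes 4 rose and 1 fell, a share of 14.3% beside 15.4% of all tested genes, with the haem oxygenase gene Hmox1 (1.73 ± 0.45, FDR 0.00845) and Nfe2l2, coding for the regulator NRF2 (1.34 ± 0.33, FDR 0.00623), among them. Only 1 or 2 of that list rose without any one of 22m replicates 2 to 8 or of 28m replicates 1, 5 and 8, and 7 rose without 28m replicates 3 or 4. With the length offset 5 rose and none fell, and the change of Hmox1 was 1.08 without 28m replicate 2.

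**Figure D3:**
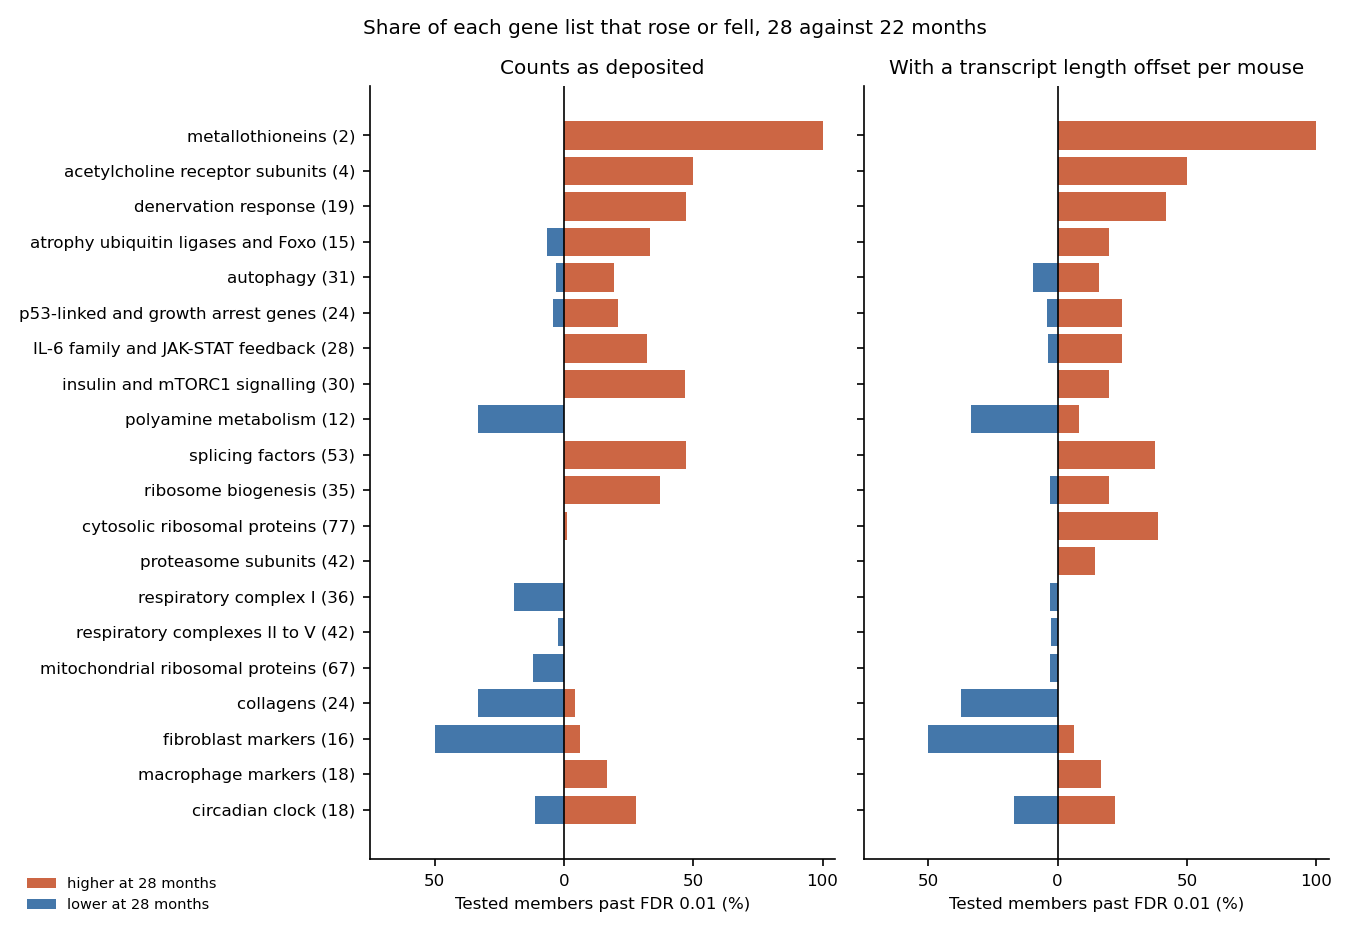
Share of the tested members (number in brackets) of 20 gene lists past FDR 0.01, higher (right) or lower (left) at 28 months, from the counts as deposited (left panel) and with an offset for transcript length in each mouse (right panel). From the counts as deposited, 15.4% of all tested genes passed. Both metallothionein genes stay higher, denervation genes go from 9 to 8 of 19 higher and collagens from 8 to 9 of 24 lower, complex I drops from 7 to 1 gene of 36, and cytosolic ribosomal proteins go from 1 to 30 of 77.

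The 26 and 24 months-old mice, 9 and 8 animals on the same diet scheme and none of them shared with the ages above, give a second and narrower step of age. Between them 4 of 12057 tested genes (0.0332%) passed, all higher at 26 months. The count went from 0 without 24m replicate 3 to 35 without 26m replicate 7. These were Mt1 (1.80 ± 0.23, FDR 0.00234), Mt2 (1.93 ± 0.28, FDR 0.00415), Tbc1d1, a Rab GTPase-activating protein gene of glucose transport (0.88 ± 0.13, FDR 0.00415), and Irf2bp2, a transcriptional corepressor gene (0.68 ± 0.10, FDR 0.00415). Of the genes that passed between 28 and 22 months and were tested in both, 1761 of 1851 (95.1%) had the same sign between 26 and 24 months, as had 77.3% of all 11971 genes tested in both. For genes that rose the share was 1075 of 1128, and for genes that fell it was 686 of 723. Their median log2 fold changes were 0.59 and 0.22 for the genes that rose, at 28 against 22 and at 26 against 24 months, and -0.52 and -0.19 for those that fell.

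Some genes kept most of the size of the step. Trim63 changed by 1.77 between 24 and 26 months and by 2.08 between 22 and 28 months, and Cxcl13 by 2.95 and 4.41, although neither passed at the shorter step (FDR 0.0237 and 0.0534). Others showed little of it. 1700001O22Rik changed by 0.01 and -1.97, Map3k7cl by -0.29 and -1.69, Sbk2 by -0.20 and -1.66, and Chrna1 by -0.02 and 0.76. The difference between the steps was itself tested in a fit over both pairs of ages. None of 12412 genes passed, and 1737 had an unadjusted p under 0.05 in edgeR's quasi-likelihood test, so no gene is shown to differ between the steps.

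**Figure D4:**
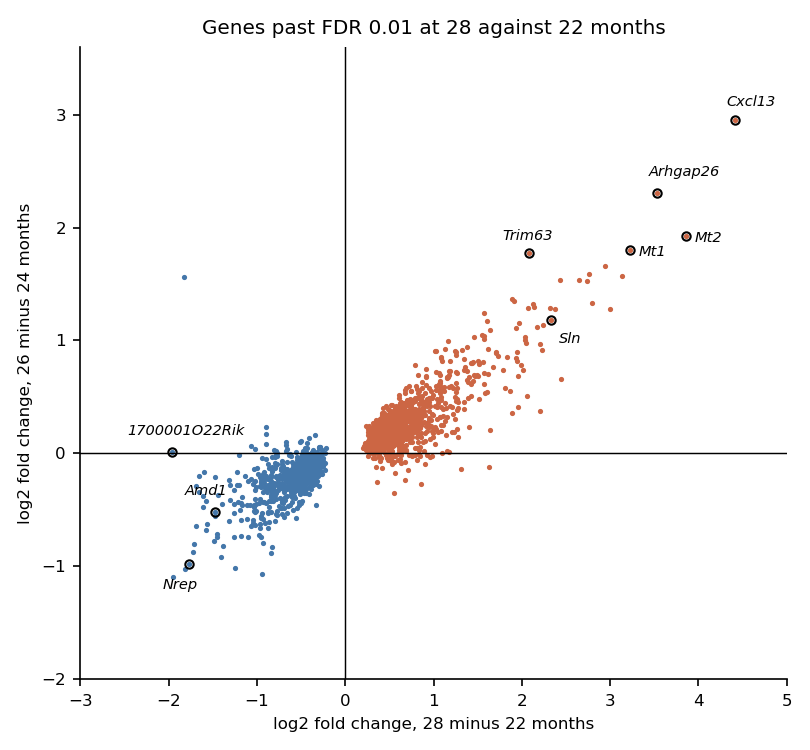
Log2 fold change of 28 minus 22 months (x) against 26 minus 24 months (y) for the genes past FDR 0.01 at 28 against 22 months, orange where higher and blue where lower, with 9 genes named. Of 1851 genes, 1761 lie at the upper right or lower left of the origin, and 1700001O22Rik lies near 0 on the y axis.

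Levels at all 6 ages place the 2 groups in the time course, as a description with no test, since 8 and 18 months differ in the diet scheme. Sln was at 2.90 ± 1.69 CPM at 8 months, 4.67 ± 1.70 at 18, 10.9 ± 7.28 at 22, 14.8 ± 13.4 at 24, 33.8 ± 20.4 at 26 and 55.4 ± 16.7 at 28 months (SD). Chrna1 stood at 17.5, 19.5, 24.8, 33.6, 33.3 and 42.2 CPM at the same ages. Amd1 had a lower mean at each later age, at 3454, 3042, 2653, 2050, 1440 and 959 CPM. Col1a2 went the same way, at 218, 174, 144, 94.6, 69.98 and 54.8 CPM. Mt1 stood at 17.1, 22.4, 13.1, 16.99, 59.5 and 123 CPM, and Trim63 at 97.2, 147, 97.7, 123, 424 and 415 CPM, so both were lower at 22 than at 18 months and high only in the 2 oldest groups. For Trim63 the means at 26 and 28 months differed by less than the SD of either age.

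**Figure D5:**
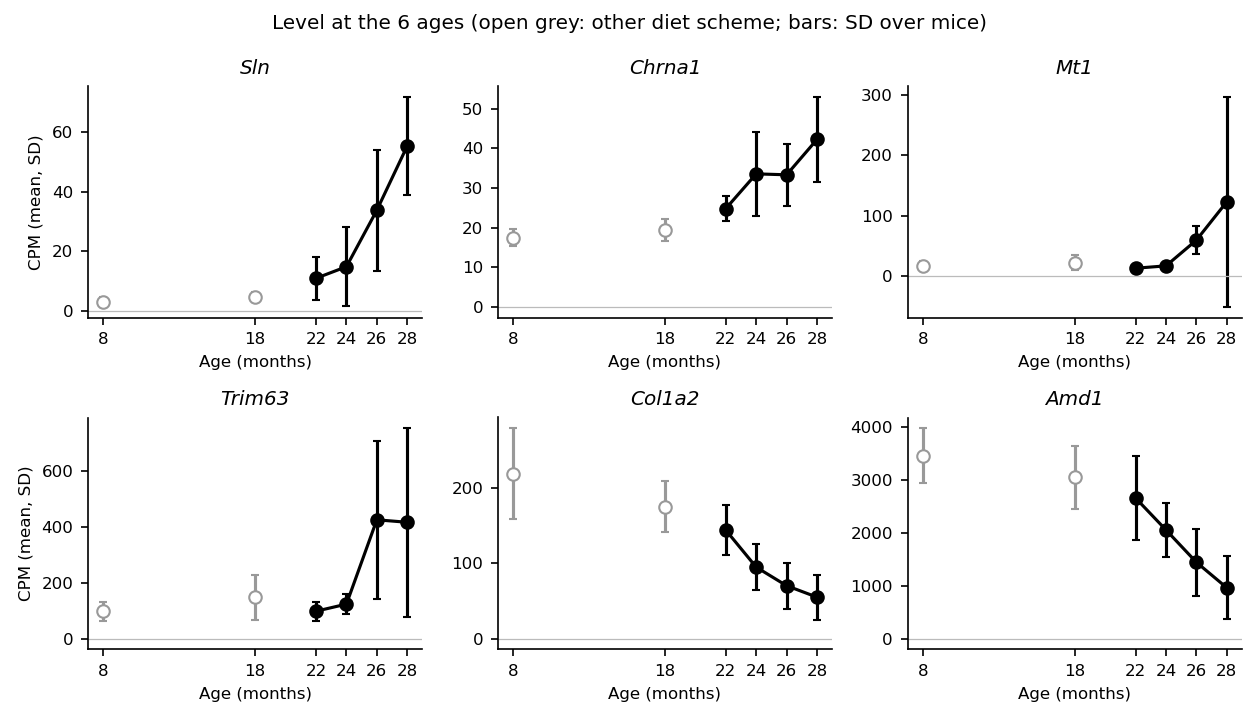
Mean CPM with SD over mice for 6 genes at each of the 6 ages, with open grey points for the ages that had another diet scheme and filled points for the 4 ages from 22 months. Sln, Chrna1, Mt1 and Trim63 are highest at 26 or 28 months, and Col1a2 and Amd1 are lowest at 28 months.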

How the data were processed

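Poly(A) RNA of gastrocnemius muscle had been sequenced as stranded paired-end libraries. According to the submitters' processing notes, the authors trimmed reads with cutadapt 1.9.1 and quantified them with kallisto 0.43.1 on GRCm38. By the study's methods, protein-coding Ensembl transcripts were used, reads that matched several transcripts were divided among them, and transcripts were summed per gene, so near-identical genes can share reads. The deposited tables held whole-number counts and TPM values for 23880 genes. Mitochondrially encoded genes were not analysed here.

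Genes that reached 1 CPM in 8 or more of the 17 mice were tested on the deposited counts with edgeR 4.0.16 (TMM scaling, quasi-likelihood test, age as the only term) and limma 3.58.1 in R 4.3.3, with Benjamini-Hochberg adjustment over all tested genes at an FDR of 0.01. DESeq2 1.42.0 and limma on log2(TPM + 1) were alternatives. CPM values use TMM factors. Single values were compared by exact permutation in Python 3.11.15 with scipy 1.17.1, numpy 2.4.6 and pandas 2.3.3, and plots were drawn with matplotlib 3.10.9. Replicates are separate mice.

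The members and the 48 gene lists were chosen with earlier results of these data known. Genes named are the 12 largest increases and 12 largest decreases past the threshold with a mean of at least 5 CPM, the 2 members of each list with the smallest FDR, of which some were left out, all tested members of lists of 5 or fewer, and 18 genes of interest, among them the myosin heavy chain genes. Other genes named, such as Gadd45a, Ncam1, Col1a2 and Lox, were chosen after their values were seen. Where a symbol had several identifiers (18 symbols), the more abundant was kept. Offsets for transcript length, and for length and GC content, were added after seeing the data, from a loess curve in each mouse (span 0.5). Positions are from GENCODE on GRCm38. Promoters are RefSeq on GRCm38.p6, 250 bases before to 50 after the start. Some members of the lists are counted but not reported here by name.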

Additional observations from a re-analysis of the deposited data

Results flagged for a closer look

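In 196 checks of a named gene or depth value within an age, 30 (15.3%) had a highest or lowest mouse beyond the Dixon limit for the group size. That limit passes about 1 in 20 only for independent values with a normal distribution. Here CPM was used without a log scale, many genes were chosen for large changes, and the genes share the same mice. The share is therefore a description and shows no excess of outlying mice. The 28m replicate 2 mouse was the highest of its age for Cxcl13 (150 CPM), Mt2 (700.4 CPM), Mt1 (546 CPM), Serpina3n (271 CPM), Cdkn1a (239 CPM), Fbxo32 (5432 CPM), Il6ra (155 CPM), Cebpd (14.7 CPM), Yy1 (88.4 CPM) and Hmox1 (109 CPM). The 28m replicate 1 mouse was the highest of its age for Arhgap26 (391 CPM), Nr4a3 (189 CPM), Sik1 (385 CPM), Myog (35.6 CPM), Irs2 (541 CPM), Ppargc1a (405 CPM), Nfil3 (390 CPM) and Nfe2l2 (367 CPM). The 22m replicate 1 mouse was the highest of its age for Arhgap26 (17.6 CPM), Musk (83.4 CPM), Myh4 (92856 CPM), Osmr (18.3 CPM) and Nfe2l2 (80.3 CPM). The 22m replicate 3 mouse was the highest of its age for Dkk3 (96.7 CPM) and Tiam1 (22.5 CPM). The 22m replicate 2 mouse was the highest of its age for Cxcl13 (4.01 CPM). The 28m replicate 2 mouse was the lowest of its age for Chrne (3.22 CPM). The 28m replicate 6 mouse was the highest of its age for Kera (5.58 CPM). The 22m replicate 4 mouse was the highest of its age for Krt10 (12.9 CPM). A total of 17.4 M counts also set 28m replicate 2 above the other mice of 28 months. Of the marks, 12 belonged to 28m replicate 2 and 8 to 28m replicate 1. The causes were not tested.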

How the results depend on the processing

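Scaling by RLE factors, a stricter filter, no filter, a robust fit, limma on TPM values and both length offsets left the number of genes past the threshold within 1.5 times of 1859. It was 2859 with DESeq2, 3485 in one fit over 50 mice, 4495 at an FDR of 0.05, and 843 to 3042 without any 1 mouse. None of the 1859 genes changed sign when a mouse was left out, and 789 passed in all 17 such fits. The genes had been chosen on the same mice, so leaving out 1 mouse could hardly change a sign. With upper-quartile factors the median of all genes lay at -0.06, and 45.8% of genes past the threshold were higher against 60.8%. Members of gene lists past the threshold numbered 179, with 283 by DESeq2, 336 over 50 mice and 91 to 310 without 1 mouse. Of the named genes 111 passed, and 86 to 124 without 1 mouse. Between 26 and 24 months 4 genes passed, 140 by DESeq2 and 0 to 35 without 1 mouse. The share with the same sign was 94.5 to 96.4% without 1 mouse of 28 months. The difference in distance was 0.0651 to 0.119 without 1 mouse. Total counts differed by -1.37 M, whereas the share in the 10 largest genes differed by -0.233 percentage points (exact permutation p = 0.896).

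Between mice of equal replicate number, correlations of the deviations ran from -0.24 to 0.35, the highest for replicate 1. Of 8 correlations 4 were over 0.1, and 3 of 8 mice matched their own number best. No chance level was set for these values, so they do not decide whether mice of equal number deviate together. The replicate block gave 1205 genes between 28 and 22 months and 2 between 26 and 24 months.

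The libraries held 14.8 M to 20.1 M counts, and no alternative varied the depth. The causes of these shifts were not tested.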

Other observations

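Genes outside the lists, chosen after their values were seen, also separated the ages. Glul, coding for glutamine synthetase, was at 189 to 628 CPM at 22 months (median 274) and at 515 to 2728 CPM at 28 months (median 1836), with 8 of 9 old mice above the younger range (log2 fold change 2.24 ± 0.31, FDR 0.000867). Fkbp5, coding for a co-chaperone of the glucocorticoid receptor and a known glucocorticoid target, rose by 2.13 ± 0.34 (FDR 0.00151). Egln3, coding for an oxygen-sensing prolyl hydroxylase, was at 21.6 to 62.5 CPM and at 70.3 to 283 CPM, without overlap (2.04 ± 0.29, FDR 0.000891). The growth factor gene Vegfd was at 5.28 to 7.79 CPM and at 8.50 to 63.8 CPM (2.03 ± 0.36, FDR 0.00182), and the calcium channel gene Cacna1i at 1.37 to 4.496 CPM and at 5.64 to 21.5 CPM (2.14 ± 0.29, FDR 0.000867), both without overlap.

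Among genes that fell, Tiam1, coding for an activator of the GTPase Rac, was at 10.98 to 22.5 CPM and at 2.52 to 9.40 CPM (-1.46 ± 0.21, FDR 0.000891), and the secreted serpin gene Serpinf1 at 44.5 to 72.1 CPM and at 10.8 to 43.1 CPM (-1.14 ± 0.21, FDR 0.00193). Krt10, a keratin gene of skin, was at 1.02 to 12.9 CPM and at 0.482 to 1.32 CPM (-1.83 ± 0.46, FDR 0.00723), and its change between 24 and 26 months was 1.57 (FDR 0.269). Krt10 passed in 8 of 17 fits that each left out 1 mouse, and its change was -0.97 without 22m replicate 4, the mouse with 12.9 CPM.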
